A study of Mus musculus with 36 samples.

Results

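The genes described here encode the aminoacyl-tRNA synthetases, the enzymes that load each tRNA with its amino acid before protein synthesis. They were the rows of the expression table whose symbol was on a list of 36 synthetase genes. All 36 were found, once each, among 12762 genes. Of these, 20 encode cytosolic enzymes or their subunits and 16, with symbols ending in ars2, encode mitochondrial enzymes.

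The 36 mRNA libraries came from B3, a mouse pre-B cell line, with 3 for each of 12 groups, namely control and Ikaros cells at 0, 2, 6, 12, 18 and 24 h. Ikaros cells carried a retroviral vector for HA-tagged Ikaros fused to ERt2, the hormone-binding domain of the estrogen receptor, followed by GFP, and 4-hydroxy-tamoxifen (4-OHT, 0.5 uM) moves the fusion protein to the nucleus. Control cells carried ERt2 and GFP from the same vector without Ikaros and received the drug as well. Both lines were sorted for GFP, so each is a pool of transduced cells of 1 parental line, and the fusion protein is driven by the vector and not by the endogenous Ikaros gene. The labels list the drug for every library, but in the methods the uninduced cultures were collected without it. Culture batches 1, 2 and 4 gave the 0 h libraries, and batches 1, 3 and 4 gave the later ones. Ikzf1, the gene of Ikaros, had a level of at least 19.6 in all 18 Ikaros libraries, those at 0 h included, and of at most 14.9 in all 18 control libraries.

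Values are deposited log2 expression levels after adjustment for GC content, gene length and library preparation, all shifted by the same constant, so that a level is not a count. Read depth cannot be recovered from these values, read numbers were not used here, and the number of libraries limits the precision. A gene was called at a Benjamini-Hochberg adjusted p under 0.05 over all 12762 genes in limma. Of 12 pre-B cell markers all were measured and 8 lay above the median gene, whereas none of 5 T cell and none of 4 fibroblast markers was listed. Of 6 myeloid markers Lyz2 and Itgam were measured, both at a mean below the median gene. Their summed level at 24 h lay between 7.28 and 8.74 in control and between 9.22 and 9.67 in Ikaros libraries on the log2 scale, but the 2 genes went opposite ways. Itgam differed by 4.24 (adjusted p = 1.39e-07, limma) and Lyz2 by -2.94 (adjusted p = 4.96e-05, limma) at 24 h, and Lyz2 was higher in Ikaros cells at 0 h, by 2.94 (adjusted p = 0.000627, limma). Of 4 erythroid markers Hbb-b1 and Klf1 were measured, again below the median gene, with a summed level at 24 h between 7.75 and 8.36 in control and between 8.19 and 8.62 in Ikaros libraries. Hbb-b1 differed by -2.02 at 0 h (adjusted p = 0.00635, limma) and by -2.13 at 2 h (adjusted p = 0.00208, limma). The part of these markers in the synthetase differences was not tested. In bulk RNA, fewer cells with a transcript and less transcript per cell cannot be told apart.

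Each synthetase recognises its own amino acid and the matching tRNAs and joins them in a reaction that consumes ATP. Cytosolic and mitochondrial protein synthesis use separate sets of enzymes, all encoded in the nucleus, except that glycyl- and lysyl-tRNA synthetase (Gars and Kars) serve both compartments from a single gene. Several cytosolic enzymes assemble with scaffold proteins into the multisynthetase complex. Many cytosolic synthetase genes are known targets of the transcription factor ATF4, which acts through C/EBP-ATF response elements when amino acids are scarce or the endoplasmic reticulum is stressed, and many genes of protein synthesis are bound by MYC at E-boxes. Ikaros is a zinc finger transcription factor that drives pre-B cells from proliferation towards differentiation.

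The promoter windows of RefSeq (build GRCm38.p6, from 250 bases before to 50 bases after each gene's start) were searched on both strands for these elements. Of the 36 genes 27 had a window. The C/EBP-ATF response element, searched as TGATGNAAN, was present in 5 of 13 cytosolic windows (Aars, Gars, Iars, Tars and Yars) and in 0 of 14 mitochondrial windows, and 4.04% of the 27025 mouse promoter windows held it. The E-box CACGTG was present in 4 of 13 cytosolic windows (Aars, Farsb, Iars and Tars) and in 1 of 14 mitochondrial windows (Ears2), with a share of 7.24% over all promoters. The Ikaros core TGGGAA was found in 3 of 27 windows (Aars, Farsb and Tars2; 25.5% of all promoters) and the CCAAT box in 13 of 27 (37.9% of all promoters). The E-boxes and response elements did not overlap. These matches are descriptions of the letters in each window and no binding was measured. Shown are the windows of the 5 genes with a response element and of Farsb, the cytosolic gene with the largest difference at 24 h, 5′ to 3′ along the gene, with E-boxes and response elements in capitals.
Aars, chr8:111033592-111033891, forward strand: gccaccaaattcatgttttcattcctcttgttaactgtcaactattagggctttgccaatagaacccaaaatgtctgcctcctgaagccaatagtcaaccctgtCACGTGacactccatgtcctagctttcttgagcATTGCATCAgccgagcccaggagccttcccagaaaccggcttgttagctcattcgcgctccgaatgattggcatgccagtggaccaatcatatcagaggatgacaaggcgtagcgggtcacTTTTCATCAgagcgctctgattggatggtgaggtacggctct
Iars, chr13:49681880-49682179, forward strand: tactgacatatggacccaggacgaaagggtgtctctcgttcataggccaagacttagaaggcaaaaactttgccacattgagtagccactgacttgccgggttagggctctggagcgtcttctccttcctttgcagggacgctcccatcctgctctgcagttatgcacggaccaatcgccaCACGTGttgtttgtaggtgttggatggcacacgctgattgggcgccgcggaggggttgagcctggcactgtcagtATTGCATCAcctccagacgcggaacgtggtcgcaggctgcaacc
Tars, chr15:11399609-11399908, reverse strand: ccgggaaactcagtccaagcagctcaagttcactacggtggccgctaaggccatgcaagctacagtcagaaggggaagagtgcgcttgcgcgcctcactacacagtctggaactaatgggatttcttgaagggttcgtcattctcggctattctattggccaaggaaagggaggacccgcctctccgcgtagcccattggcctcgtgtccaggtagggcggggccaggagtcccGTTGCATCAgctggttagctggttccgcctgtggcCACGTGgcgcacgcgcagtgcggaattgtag
Gars, chr6:55037751-55038050, forward strand: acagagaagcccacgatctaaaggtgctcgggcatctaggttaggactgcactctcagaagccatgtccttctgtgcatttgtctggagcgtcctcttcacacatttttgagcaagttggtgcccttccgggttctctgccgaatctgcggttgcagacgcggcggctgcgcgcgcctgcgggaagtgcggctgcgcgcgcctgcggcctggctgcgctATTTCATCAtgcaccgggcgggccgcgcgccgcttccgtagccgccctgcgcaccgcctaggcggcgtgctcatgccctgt
Yars, chr4:129189653-129189952, forward strand: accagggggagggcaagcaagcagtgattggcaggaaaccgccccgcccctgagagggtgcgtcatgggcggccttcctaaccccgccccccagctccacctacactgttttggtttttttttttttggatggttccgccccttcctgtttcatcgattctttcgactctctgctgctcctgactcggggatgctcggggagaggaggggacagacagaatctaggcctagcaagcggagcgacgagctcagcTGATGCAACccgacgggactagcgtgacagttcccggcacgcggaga
Farsb, chr1:78488848-78489147, reverse strand: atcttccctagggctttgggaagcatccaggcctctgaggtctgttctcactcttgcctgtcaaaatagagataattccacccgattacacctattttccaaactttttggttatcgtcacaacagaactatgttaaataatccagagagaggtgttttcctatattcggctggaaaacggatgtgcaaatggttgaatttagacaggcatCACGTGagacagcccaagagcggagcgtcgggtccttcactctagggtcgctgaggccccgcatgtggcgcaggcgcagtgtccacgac
Aars held 2 response elements, at -113 and 8 relative to its start, and Iars held its element at 6, Tars at -16, Gars at -31 and Yars at 3. The E-boxes lay at -146 in Aars, -69 in Iars, 19 in Tars and -39 in Farsb.

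Most cytosolic synthetase mRNAs were lower in Ikaros than in control cells from 12 h onwards. The mitochondrial set was mixed, with 11 of 16 members lower at 24 h, 4 of them from 2 h onwards, and 5 not called at 24 h. Before induction, at 0 h, 0 of 36 synthetases were called in limma (adjusted p under 0.05), while 3.72% of all genes were called lower and 4.61% higher in Ikaros cells. At 2 h 0 cytosolic members were called lower and 1 higher, against 5 mitochondrial members lower and 1 higher, with 9.88% of all genes lower and 9.18% higher. At 6 h the cytosolic counts were 1 lower and 2 higher and the mitochondrial counts 7 lower and 1 higher (all genes 19.2% lower and 18.1% higher). At 12 h 15 of 20 cytosolic members were lower and 1 higher, and 6 of 16 mitochondrial members were lower and 1 higher (22.8% and 23% of all genes). At 18 h the counts were 19 lower and 1 higher for cytosolic and 11 lower and 1 higher for mitochondrial members, beside 29.2% and 29% of all genes. At 24 h all 20 cytosolic members were called, 19 lower and 1 higher, and 11 mitochondrial members were lower and 0 higher, where 31.9% of all genes were lower and 31% higher.

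**Figure D1:**
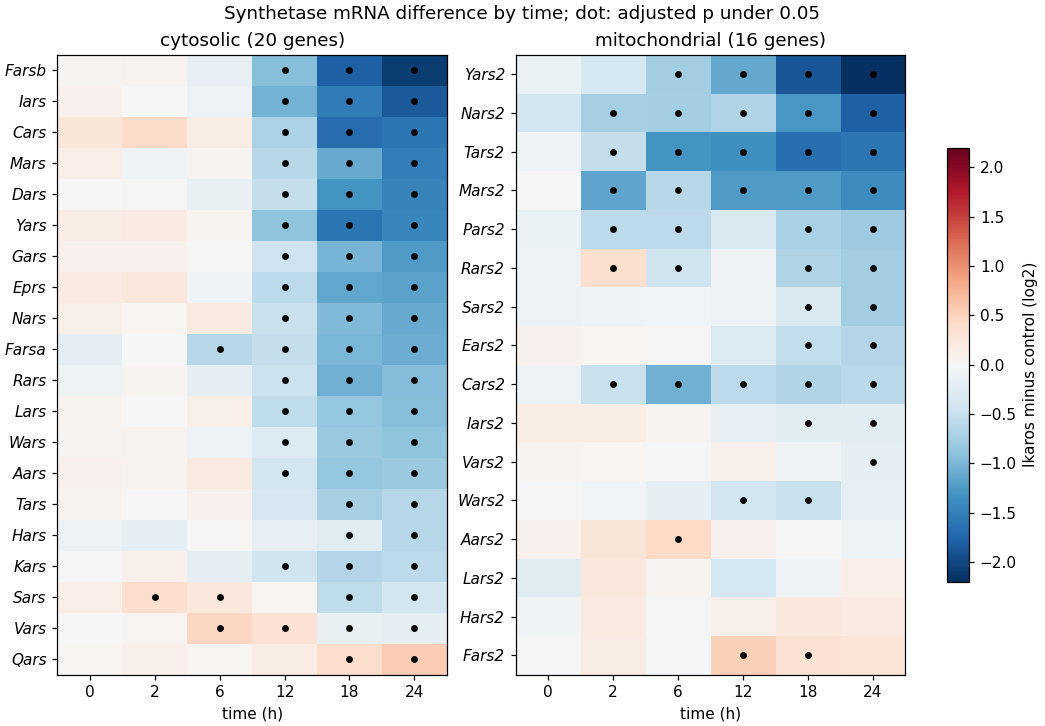
Ikaros minus control log2 difference of each synthetase (rows, italic symbols, ordered by the 24 h value) at each time in hours (columns), for 20 cytosolic and 16 mitochondrial genes, with a dot where the adjusted p was under 0.05. At 12 h 15 cytosolic genes are called lower in Ikaros cells (blue), of which Farsa was already called at 6 h, while Mars2, Tars2, Nars2, Cars2 and Pars2 are called lower at 2 h. Nars2 is also blue at 0 h, without a dot.

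In time order from 0 to 24 h, the median log2 difference of the cytosolic members was 0.08, 0.07, 0.03, -0.48, -0.99 and -1.03. That of the mitochondrial members was -0.08, -0.01, -0.13, -0.32, -0.51 and -0.62. The median of all genes lay between -0.03 and -0.00247 over the same times, with quartiles of -0.69 and 0.67 at 24 h. Within culture batches 1, 3 and 4 the cytosolic median at 24 h was -1.10, -0.97 and -1.02 and the mitochondrial median -0.59, -0.62 and -0.35, each from 1 Ikaros and 1 control library. In each of these batches 19 of 20 cytosolic members were below 0, and 13, 12 and 12 of 16 mitochondrial members.

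**Figure D2:**
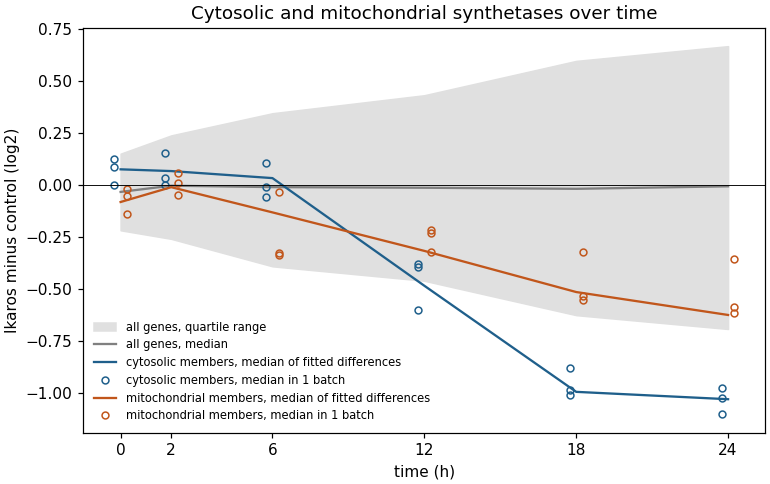
Median Ikaros minus control log2 difference (vertical axis) over time in hours (horizontal axis) for cytosolic (blue) and mitochondrial (orange) synthetases, as lines from the fit and open circles for single culture batches, over the quartile range of all genes in grey. The cytosolic median is below this range from 12 h and reaches -1.03 at 24 h, and the mitochondrial median reaches -0.62 and stays inside the range.

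In control cells 0 of 36 members were called in limma against their own 0 h libraries at any of the 5 later times. The share of all genes called in either direction, from 2 to 24 h in order, was 0.047%, 5.1%, 0.0549%, 0.478% and 0.47%. The 6 h result depended on the fit. In the paired fit, with batch as a replicate block, Farsa (adjusted p = 0.0199), Iars (0.0232) and Rars2 (0.0251) were called in limma, and with the 0 h cultures blocked apart 3 cytosolic and 2 mitochondrial members were, with control differences from 0 h between -0.32 and 0.46 over all members. The share of 5.1% is from the fit without a block, and the share of all genes in the blocked fits was not determined here.

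In Ikaros cells 19 cytosolic and 12 mitochondrial members were called lower at 24 h than in their own 0 h libraries (29.6% of all genes), with Qars, Fars2 and Hars2 higher (31% of all genes) and Aars2 and Lars2 not called. Lars2, which differed by 0.58 ± 0.26 (adjusted p = 0.0545, limma), was called higher with the replicate block (adjusted p = 0.00191, and 0.0124 with the 0 h cultures blocked apart), as it was at 6, 12 and 18 h (adjusted p = 0.00648, 0.00559 and 0.00518 with the block). At 2 h Mars among the cytosolic and Cars2, Mars2 and Tars2 among the mitochondrial members were lower (9.61% of all genes), and Lars2 and Rars2 were higher (9.54% of all genes). With the replicate block 4 cytosolic members instead of 1 were called at 2 h. Farsa (0.26, adjusted p = 0.0304) and Sars (0.24, adjusted p = 0.0284) were added as higher and Iars (-0.26, adjusted p = 0.0371, all limma) as lower. The share of all genes called with the block was not determined for this comparison. Since the 0 h cultures were collected on other occasions, Ikaros cells at 24 h were also compared with Ikaros cells at 2 h. Here 19 cytosolic and 12 mitochondrial members were lower at 24 h (30.4% of all genes), and Qars was higher (30.2% of all genes).

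The change of the Ikaros minus control difference from 0 h, which tests whether the 2 lines moved differently, was called lower for 1 mitochondrial member, Mars2, at 2 h (1.89% of all genes), for 12 cytosolic and 5 mitochondrial members at 12 h (14.3%), and for 19 cytosolic and 11 mitochondrial members at 24 h (24.2%). Taken from 2 h instead, the change to 24 h was called lower for 19 cytosolic and 7 mitochondrial members (24% of all genes). In either direction the change from 0 h was called for 3.1%, 15.9%, 29.7%, 43% and 48.4% of all genes from 2 to 24 h in order, and that from 2 to 24 h for 47.3%. These contrasts share the Ikaros and control libraries with the other comparisons and are not independent of them.

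Among cytosolic enzymes the largest difference at 24 h belonged to Farsb, the beta subunit of phenylalanyl-tRNA synthetase. Its level was 13.72, 13.81 and 13.82 in the control libraries and 11.61, 11.87 and 11.59 in the Ikaros libraries. The Ikaros libraries lay below all controls by more than the spread within either group. The difference was -2.09 ± 0.13 (SE, n = 3 per group), or 0.235 times the control level, with an adjusted p of 2.24e-13 in limma. Farsa, the alpha subunit of the same enzyme, differed by -1.10 ± 0.10 at 24 h and was already lower at 6 h, by -0.62 ± 0.10 (adjusted p = 2.46e-05, limma).

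Iars, the isoleucyl enzyme and a member of the multisynthetase complex, stood at 14.30, 14.43 and 14.34 in control and at 12.53, 12.58 and 12.41 in Ikaros libraries at 24 h. The groups did not overlap, and the difference of -1.85 ± 0.11 corresponded to 0.278 times the control level (adjusted p = 1.16e-13, limma). Cars, the cysteinyl enzyme, stood at 13.75, 13.82 and 13.48 in control and 11.99, 12.13 and 12.18 in Ikaros libraries. Its 24 h difference was -1.58 ± 0.16 (adjusted p = 1.5e-09, limma), after 0.42 ± 0.16 at 2 h, which was not called (adjusted p = 0.0605; 0.0456 with the replicate block). Mars, the methionyl enzyme, also in the complex, stood at 14.52, 14.57 and 14.55 in control and 13.01, 13.10 and 12.97 in Ikaros libraries, a difference of -1.52 ± 0.08 (adjusted p = 1.77e-14, limma). Mars overlaps Ddit3, a stress response gene on the opposite strand, whose own difference at 24 h was -0.65 ± 0.22. The libraries were made with a kit that keeps the strand (dUTP), but whether the counting used it is not given in the sources used here, so it is uncertain how reads in the overlap were assigned. Other members overlap annotated genes too, among them Farsb, Aars, Wars, Ears2, Fars2, Iars2 and Nars2, with the same uncertainty. Aars (with Exosc6) and Farsb also overlap a gene on their own strand.

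The other cytosolic enzymes fell into a graded series at 24 h. Dars (aspartyl, -1.47), Yars (tyrosyl, -1.43), Gars (glycyl, -1.24), Eprs (the fused glutamyl and prolyl enzyme, -1.18) and Nars (asparaginyl, -1.10) were more than 1 log2 unit lower. Rars (arginyl, -0.96), Lars (leucyl, -0.93), Wars (tryptophanyl, -0.89) and Aars (alanyl, -0.81) were lower by less. Tars (threonyl, -0.63), Hars (histidyl, -0.63) and Kars (lysyl, -0.57) followed, and SEs of these 12 genes lay between 0.07 and 0.16. All were called in limma at 24 h, with adjusted p between 3.92e-14 for Gars and 0.00122 for Tars, and no test was made between neighbours in this order. Kars and Tars lost the 24 h call without replicate 2.

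Qars, the glutaminyl enzyme, went the other way although it is a member of the multisynthetase complex. At 24 h its level was 14.19, 14.24 and 14.17 in control and 14.81, 14.65 and 14.83 in Ikaros libraries. Every Ikaros library lay above every control, and the difference was 0.56 ± 0.08, or 1.48 times the control level (adjusted p = 1.6e-06, limma). At 18 h it was 0.39 ± 0.08 (adjusted p = 0.00023, limma), and at 12 h 0.17 ± 0.08, which was not called (adjusted p = 0.0981).

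Vars, the valyl enzyme, had the smallest cytosolic difference at 24 h and changed direction on the way. At 6 h it stood at 15.71, 15.82 and 15.71 in control and 16.24, 16.22 and 16.13 in Ikaros libraries, a difference of 0.45 ± 0.07 (adjusted p = 6.07e-06, limma) that was not called in the fit of only the 6 h groups. At 24 h the levels were 15.92, 15.91 and 15.89 in control and 15.63, 15.66 and 15.76 in Ikaros libraries. The difference was then -0.22 ± 0.07 (adjusted p = 0.00526, limma), a call that was lost in the fit of only these groups and without replicate 1 or replicate 2. Its change from 2 to 24 h was -0.26 (adjusted p = 0.0245, limma).

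Sars, the seryl enzyme, was the only cytosolic member called at 2 h. Its levels were 14.44, 14.55 and 14.70 in control and 14.96, 14.84 and 15.02 in Ikaros libraries at that time, with no overlap and a difference of 0.38 ± 0.09 (adjusted p = 0.00358, limma). At 24 h it stood at 14.62, 14.67 and 14.55 in control and 14.15, 14.24 and 14.25 in Ikaros libraries. The difference was -0.40 ± 0.09 (adjusted p = 0.000399, limma), and its change from 2 to 24 h was -0.78 (adjusted p = 1.57e-05, limma). The 2 h call was lost in the fit of only the 2 groups and without replicate 1 or replicate 2.

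**Figure D3:**
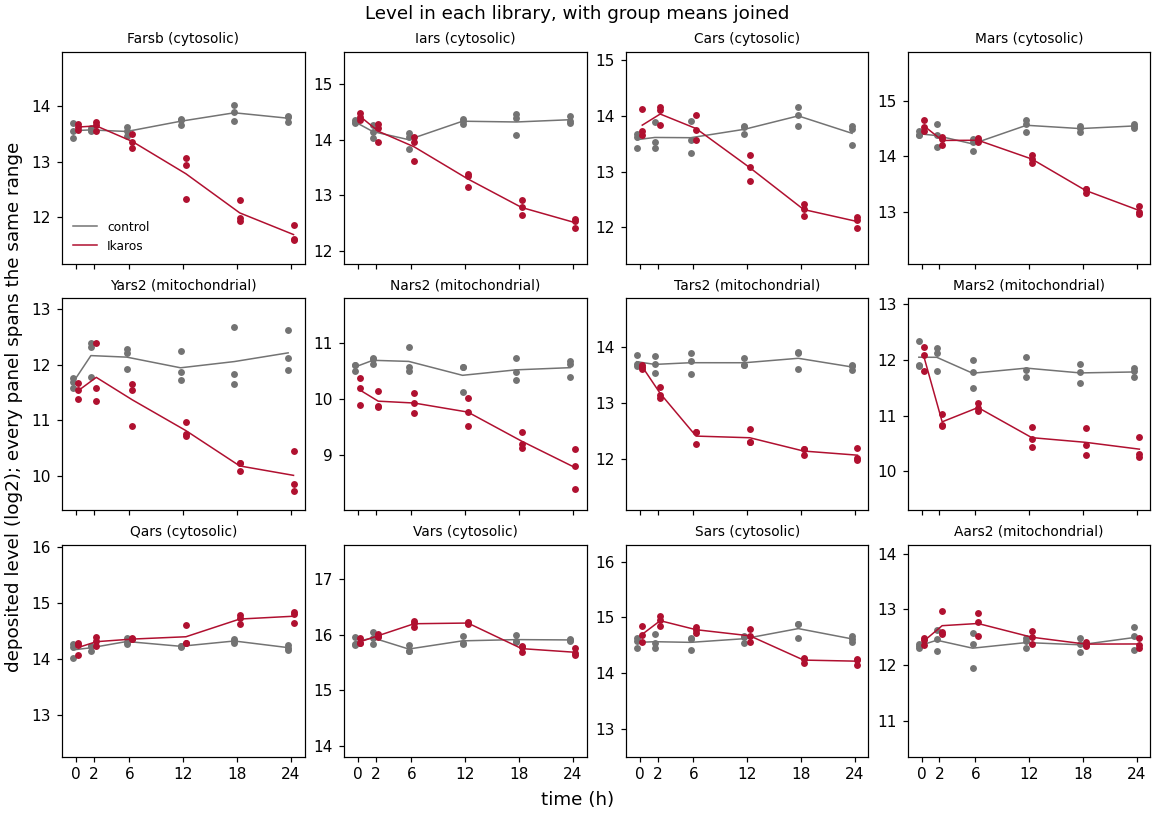
Deposited log2 level (vertical axis, the same span in every panel) of 12 synthetases in each library over time in hours (horizontal axis), control in grey and Ikaros in red, with group means joined. Farsb, Iars, Cars and Mars separate from control at 12 h, Tars2 and Mars2 at 2 h, Qars separates upwards at 18 h, and Vars and Sars cross from above control to below it.

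For each member the start was taken as the first time from which it was called in the direction of its 24 h difference at every later time. Of the cytosolic members 1 (Farsa) started at 6 h, 14 at 12 h and 5 (Hars, Qars, Sars, Tars and Vars) at 18 h. Of the mitochondrial members 4 (Cars2, Mars2, Nars2 and Tars2) started at 2 h, 1 (Yars2) at 6 h, 0 at 12 h, 5 (Ears2, Iars2, Pars2, Rars2 and Sars2) at 18 h and 1 (Vars2) at 24 h, while 5 (Aars2, Fars2, Hars2, Lars2 and Wars2) were not called at 24 h. With the replicate block Tars (adjusted p = 0.0291) and Pars2 (0.0106) were called at 12 h as well, so that Tars would start at 12 h and Pars2, already called lower at 2 and 6 h, would start at 2 h. The share of all genes that start at each time by this rule was not determined. Whether the start times differ between the sets was not tested.

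Among mitochondrial enzymes, 4 were lower from 2 h onwards (5 with the replicate block, which adds Pars2). Mars2, the mitochondrial methionyl enzyme, stood at 12.22, 12.12 and 11.80 in control and 10.82, 11.03 and 10.81 in Ikaros libraries at 2 h. No libraries overlapped, the difference was -1.16 ± 0.16, or 0.448 times the control level (adjusted p = 4.34e-06, limma), and it was called in every alternative fit of this comparison. It was also the only member whose change from 0 h already differed between the lines at 2 h, by -1.15 (adjusted p = 0.00229, limma), a call lost without replicate 1 or replicate 2. At 24 h Mars2 stood at 11.69, 11.80 and 11.85 in control and 10.31, 10.26 and 10.62 in Ikaros libraries, a difference of -1.39 ± 0.16 (adjusted p = 1.81e-08, limma).

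Tars2, the mitochondrial threonyl enzyme, stood at 13.53, 13.69 and 13.84 in control and 13.13, 13.09 and 13.28 in Ikaros libraries at 2 h. The groups were apart by less than at later times, and the difference was -0.52 ± 0.10 (adjusted p = 6e-04, limma). It reached -1.32 ± 0.10 at 6 h, and at 24 h the levels were 13.68, 13.59 and 13.66 in control and 11.98, 12.18 and 12.02 in Ikaros libraries. The 24 h difference was -1.58 ± 0.10, or 0.334 times the control level (adjusted p = 4.77e-13, limma).

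Nars2, the mitochondrial asparaginyl enzyme, differed by -0.73 ± 0.17 at 2 h (adjusted p = 0.00259, limma), where it stood at 10.73, 10.64 and 10.72 in control and 9.87, 10.15 and 9.88 in Ikaros libraries. Its difference at 0 h was already -0.42 ± 0.17, which was not called (adjusted p = 0.151), and its change from 0 to 2 h was -0.32 (adjusted p = 0.677). At 24 h it stood at 10.39, 10.62 and 10.68 in control and 9.11, 8.39 and 8.80 in Ikaros libraries, a difference of -1.80 ± 0.17 (adjusted p = 6.15e-10, limma).

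Yars2, the mitochondrial tyrosyl enzyme, had the largest difference of all members at 24 h. Its levels were 12.12, 11.89 and 12.62 in control and 9.86, 10.45 and 9.73 in Ikaros libraries. The spread within its groups was wide, with SDs of 0.37 and 0.38, but the groups were apart, and the difference was -2.20 ± 0.26, or 0.218 times the control level (adjusted p = 4.76e-08, limma). At 2 h it was -0.39 ± 0.26 and not called (adjusted p = 0.343).

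Cars2, the mitochondrial cysteinyl enzyme, had its largest difference at 6 h and not at the end. The difference was -0.50 ± 0.11 at 2 h (adjusted p = 0.00114), -1.06 ± 0.11 at 6 h (adjusted p = 1.27e-08) and -0.60 ± 0.11 at 24 h (adjusted p = 2.04e-05, all limma). At 6 h it stood at 12.98, 12.78 and 13.11 in control and 11.97, 12.06 and 11.65 in Ikaros libraries, which did not overlap. Cars2 overlaps Naxd on the opposite strand. Pars2, the mitochondrial prolyl enzyme, differed by -0.58 ± 0.15 at 2 h (adjusted p = 0.00677, limma) and by -0.80 ± 0.15 at 24 h. Rars2, the mitochondrial arginyl enzyme, was higher at 2 h, by 0.35 ± 0.12 (adjusted p = 0.0396, limma), and differed by -0.43 ± 0.12 at 6 h, called but lost without replicate 1 or replicate 2, and by -0.76 ± 0.12 at 24 h. Its change from 2 to 24 h was -1.12 (adjusted p = 4.99e-06, limma).

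Many 2 h calls depended on the fit. In the fit of only the 2 h groups Cars2, Pars2, Rars2 and Tars2 were not called, without replicate 1 Cars2, Nars2, Pars2 and Rars2 were not, and without replicate 2 Pars2, Rars2 and Tars2 were not, so that 2, 2 and 3 mitochondrial members remained. Calls also fell over all 12762 genes, to 860, 962 and 804 in that order, from 1261 lower and 1171 higher in the main fit.

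Of the other mitochondrial members, Sars2 (seryl, -0.76 ± 0.09) and Ears2 (glutamyl, -0.65 ± 0.16) were lower at 24 h, while Iars2 (isoleucyl, -0.23 ± 0.10) and Vars2 (valyl, -0.19 ± 0.07) passed the test by little (adjusted p = 0.0395 and 0.0238, limma) and lost the call without replicate 1 or replicate 2 and in the fit of only the 2 groups. Aars2, the mitochondrial alanyl enzyme, had the smallest difference, -0.12 ± 0.14 (adjusted p = 0.48, limma). It stood at 12.52, 12.27 and 12.69 in control and 12.36, 12.30 and 12.48 in Ikaros libraries, which overlapped. At 6 h it had been higher in Ikaros cells by 0.44 ± 0.14 (adjusted p = 0.0127, limma), a call lost without replicate 1 or 2, without control replicate 1 at 6 h alone, and in the fit of only the 6 h groups. Wars2 (tryptophanyl) was lower at 12 h, by -0.42 ± 0.15, and at 18 h, by -0.49 ± 0.15, and differed by -0.18 ± 0.15 at 24 h (adjusted p = 0.307, limma). At 24 h it stood at 10.88, 10.84 and 10.16 in control and 10.61, 10.32 and 10.41 in Ikaros libraries, so that 1 control library lay below every Ikaros library. Without that library, replicate 3, a fit added after its value was seen, the difference was -0.41 ± 0.14 and was called (adjusted p = 0.0114, limma).

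Fars2, the mitochondrial phenylalanyl enzyme, was higher in Ikaros cells at 12 h, by 0.52 ± 0.13 (adjusted p = 0.00216, limma), and differed by 0.28 ± 0.13 at 24 h (adjusted p = 0.0727). At 12 h it stood at 12.93, 12.86 and 13.03 in control and 13.49, 13.60 and 13.30 in Ikaros libraries, with no overlap, and the 12 h call was lost without replicate 2. At 18 h the difference was 0.32 ± 0.13 (adjusted p = 0.0445, limma), a call lost without replicate 1 or 2, after quantile normalization and in the fit of only the 18 h groups. Hars2 (histidyl) was not called at any time and differed by 0.19 ± 0.13 at 24 h, although Hars, which it overlaps on the opposite strand, was lower. With the replicate block Hars2 was called higher at 18 h (adjusted p = 0.0342, against 0.109 without it). Lars2 (leucyl) varied widely between replicates. Its control levels at 12 h were 17.28, 16.12 and 16.59 and at 0 h 16.06, 16.59 and 15.45, with SDs of 0.59 and 0.57, and it was not called at any time, with a difference of 0.15 ± 0.26 at 24 h (adjusted p = 0.645, limma).

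To compare the 2 compartments within the same libraries, the cytosolic minus mitochondrial log2 value of each amino acid was taken in each library, and its Ikaros minus control difference was averaged over 12, 18 and 24 h. The difference at 0 h was not subtracted. The exact two-sided permutation test exchanged line labels within each time (8000 splits, smallest possible p 0.00025), was run for 17 pairs and was not adjusted. It treats the libraries of different times as independent and does not use the pairing of the lines by batch. In each batch, however, the flasks of a line were split from the same expanded cells, so these p values and SEs may be too small. Fars2 and Eprs each entered 2 pairs, so these are not independent. In 14 pairs the exact p was under 0.05, in 11 with the cytosolic enzyme lower relative to the mitochondrial one and in 3 with the mitochondrial enzyme relatively lower. How often pairs of other genes pass this test was not determined, so these counts have no background to be read against. A gap does not mean that both enzymes fell, since Fars2 and Hars2 had positive differences at 12, 18 and 24 h.

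The widest gap was that between Farsb and Fars2, -1.98 ± 0.11 (SE, exact permutation p = 0.00025, the smallest possible). Iars against Iars2 gave -1.25 ± 0.06 and Farsa against Fars2 -1.25 ± 0.09, both at the smallest p. Cars against Cars2 gave -0.71 ± 0.07 (exact permutation p = 0.0015), after a gap of 0.92 in the opposite direction at 2 h, when Cars2 was already lower and Cars was not. The gap of this pair was already 0.40 at 0 h. Aars against Aars2 gave -0.69 ± 0.09 and Hars against Hars2 -0.54 ± 0.06, also at the smallest p. In the remaining pairs with the cytosolic enzyme lower, the gap lay between -0.67 for Lars against Lars2 and -0.31 for Wars against Wars2. The pair of Wars (exact permutation p = 0.0442) was no longer under 0.05 when any replicate was left out.

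Threonine went the other way, with Tars against Tars2 at 0.95 ± 0.12 (exact permutation p = 0.00025). At 24 h the cytosolic minus mitochondrial value of this pair lay between 0.43 and 1.01 in control and between 1.45 and 1.92 in Ikaros libraries, without overlap. Asparagine (Nars against Nars2, 0.39 ± 0.14, exact permutation p = 0.0122) and tyrosine (Yars against Yars2, 0.42 ± 0.16, exact permutation p = 0.019) had the same direction. Both kept this direction but were no longer under 0.05 without replicate 1 or replicate 2, and tyrosine also not without replicate 3. At 0 h, before induction, the gap was already 0.55 for asparagine and 0.30 for tyrosine, beside 0.16 for threonine. The change of a gap from 0 h was not tested. The gaps of methionine (0.22 ± 0.08, exact permutation p = 0.0822), serine (0.09 ± 0.06, p = 0.319 in the exact test) and valine (0.03 ± 0.04, p = 0.555 in the exact test) did not reach the threshold. For methionine the gap was 1.07 at 2 h and -0.13 at 24 h, since Mars2 was lower early and Mars late.

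**Figure D4:**
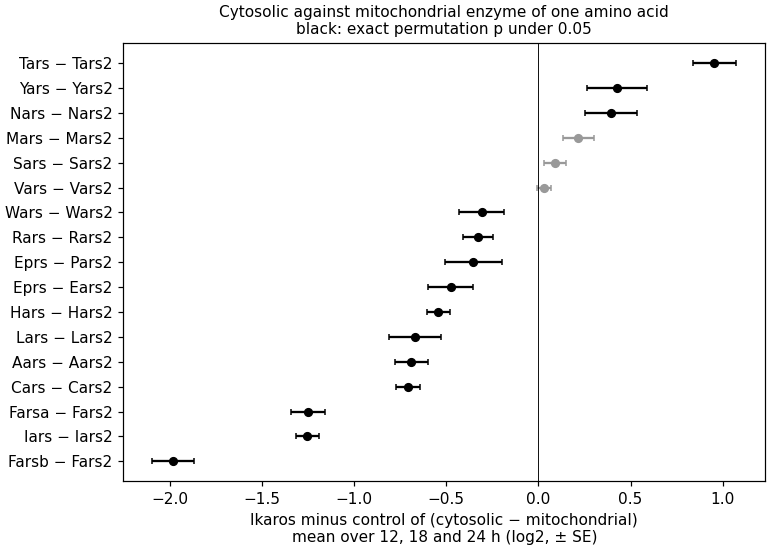
Ikaros minus control difference of the cytosolic minus mitochondrial log2 value for 17 pairs of enzymes (rows), averaged over 12, 18 and 24 h, with SE bars (horizontal axis, log2), in black where the exact permutation p was under 0.05 and in grey otherwise. Most pairs lie left of 0, where the cytosolic enzyme is lower relative to the mitochondrial one, from -1.98 for Farsb and Fars2, and Tars and Tars2 lie farthest right at 0.95.

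By enzyme class, class I enzymes, which share a Rossmann fold catalytic domain, had 16 of 19 members lower and 1 higher at 24 h with a median of -0.89, and class II enzymes, built on an antiparallel beta sheet, had 14 of 17 lower and 0 higher with a median of -0.80. Eprs, the fused glutamyl and prolyl enzyme, was counted in class I only, by its glutamyl part. Of the 8 cytosolic members in the multisynthetase complex 7 were lower and 1 (Qars) higher at 24 h, with a median of -1.07, and of the 12 other cytosolic members 12 were lower, with a median of -0.99. Over all genes 31.9% were lower and 31% higher at 24 h. The difference between these groups was not tested.

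The scaffold genes of the complex did not move as a unit. Aimp2 differed by -1.94 ± 0.10 (adjusted p = 2.39e-15) and Eef1e1 by -2.12 ± 0.18 (adjusted p = 7.19e-11, limma) at 24 h, whereas Aimp1 differed by -0.06 ± 0.16 and was not called. In elongation charged tRNA is brought to the ribosome and moved along. Of 5 genes listed for this step in the cytosol, Eef1g (-0.86) and Eef1d (-0.75) were lower and Eef2 (0.36) was higher at 24 h. These counts were close to the 31.9% and 31% of all genes. All 4 genes listed for mitochondrial elongation were lower at 24 h, between -0.95 for Tsfm and -0.44 for Gfm2, and 0 were called at 2 h. Of 6 measured genes for other steps of mitochondrial tRNA charging and modification 4 were lower at 24 h (31.9% of all genes), among them Gatc, a subunit of the glutamyl-tRNA amidotransferase (-0.88 ± 0.14). The change of the difference from 0 to 24 h was called lower for 2 of these 6 (24.2% of all genes).

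Genes of the integrated stress response, in which ATF4 is the main transcription factor, were lower as well. Of 18 measured genes 13 were lower and 2 higher at 24 h, beside 31.9% and 31% of all genes, with a median of -0.96. The amino acid response genes Trib3 (-3.40 ± 0.22), Chac1 (-3.27 ± 0.40), Asns, asparagine synthetase (-2.80 ± 0.11), and Phgdh, the first enzyme of serine synthesis (-2.30 ± 0.13), had differences beyond the -2.20 of Yars2, the largest among the 36 synthetases. Atf4 itself differed by -0.77 ± 0.24 (adjusted p = 0.00599, limma). Eif2ak3 (1.11 ± 0.11) and Eif2ak4 (0.59 ± 0.09), the kinases PERK and GCN2 that start the response, were higher. At 2 h 0 of these genes were lower and 3 were higher (Asns, Eif2ak3 and Stc2), beside 9.88% and 9.18% of all genes. At 0 h 2 were already higher, Atf5 (0.84) and Sesn2 (0.57), beside 4.61% of all genes, and Stc2 differed by 1.06 at 0 h (not called) and 1.17 at 2 h. The change of the difference from 0 to 2 h was called for 0 of the 18 in limma. Myc was lower from 2 h, by -1.63 ± 0.17 (adjusted p = 4.97e-08, limma), and by -2.52 ± 0.17 at 24 h. Whether Myc or the stress response plays a part in the synthetase changes was not tested.

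**Figure D5:**
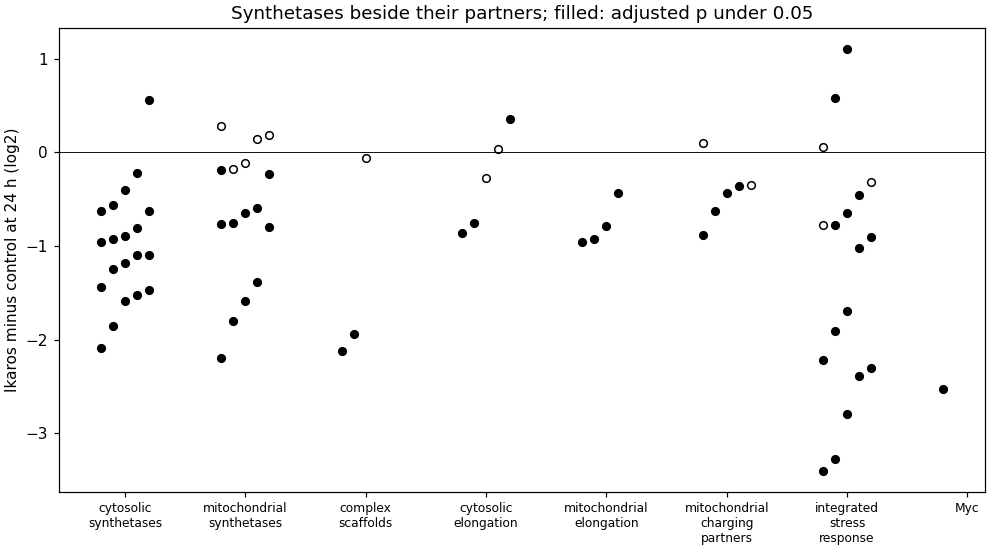
Ikaros minus control log2 difference at 24 h (vertical axis) of single genes in the 2 sets of synthetases and in lists of related genes (horizontal axis), filled where the adjusted p was under 0.05. Points are spread sideways only to be seen. The stress response list spans -3.40 to 1.11, and 19 of 20 cytosolic synthetases lie below 0.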

How the data were processed

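The authors trimmed the reads, aligned them to mm10 with TopHat2, counted genes with HTSeq, and adjusted them for gene length and GC content with cqn. Non-parametric ComBat was then applied against effects of library preparation. The libraries keep the strand (dUTP). Versions and the strand setting of the counting are not given in the sources used here. The deposited log2 values have a lowest value of 1, and the table does not state the log base, so folds rest on base 2. Read depth is not in these values, and SEs may be too small after the ComBat adjustment.

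Group means were fitted to all 36 libraries in limma 3.58.1 (R 4.3.3) without a block, two-sided, with Benjamini-Hochberg adjustment over 12762 genes, after a test on simulated data. Batch numbers in the labels pair control and Ikaros cultures, and deviations of the 18 pairs correlated between -0.062 and 0.507 (median 0.127, 12 pairs over 0.1). No 2 libraries shared more than 0.384% of values. Per-library values follow a rule: at 24 h the 4 largest called differences per compartment, the smallest, and called members of opposite sign, with members called at 2 h named; others were added after their values were seen. The members and lists were chosen with earlier results of these data known. Gatb was listed as Pet112. A gene of the list for mitochondrial tRNA charging is not reported here. Overlaps came from GENCODE on GRCm38, promoters from RefSeq. Alternatives were a replicate block (also with 0 h cultures blocked apart), a filter on low values (at or above percentile 25 of the means), quantile normalization, trended robust variances, fitting the compared groups alone, and leaving out each replicate, or control replicate 3 at 18 h or 1 at 6 h. For Wars2 at 24 h leaving out control replicate 3 was added after seeing the data.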

Additional observations from a re-analysis of the deposited data

Results flagged for a closer look

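The change of synthetase mRNA from 0 h differed between the lines by an interaction contrast in limma (adjusted p under 0.05). In time order from 6 to 24 h this held for 1, 13, 18 and 20 of 20 cytosolic members, and from 2 to 24 h for 1, 2, 6, 9 and 11 of 16 mitochondrial members. Over all genes the shares from 2 to 24 h were 3.1%, 15.9%, 29.7%, 43% and 48.4%. The difference between the lines also changed from 2 to 24 h for 20 of 20 cytosolic and 7 of 16 mitochondrial members, beside 47.3% of all genes. The counts and shares take both directions. Whether the cytosolic and mitochondrial counts differ was not tested.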

How the results depend on the processing

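Of 332 recomputed counts of called members 293 stayed within 1.5 times, 111 of 112 medians moved by less than the spread between batches, and 376 of 420 differences of single members kept their call, with 44 losing it and 0 reversing. The blocks, the filter, the trended variances and the fits of the compared groups alone cannot change the size of an Ikaros minus control difference here. Only quantile normalization and leaving out libraries could therefore move a median or reverse a member. With the replicate block 2 cytosolic members were called at 2 h instead of 1 (also 2 with the 0 h cultures blocked apart), 4 instead of 1 in Ikaros cells at 2 h against their own 0 h (also 4), and in control cells at 6 h against 0 h 2 cytosolic and 1 mitochondrial members instead of 0 (3 and 2 with the 0 h cultures blocked apart). For Ikaros against control the paired fit took no call from a member at 2 h or 24 h. In fits of only the groups compared, 0 cytosolic and 2 mitochondrial members were called at 2 h, 1 and 3 at 6 h, and 0 and 1 for Ikaros cells at 2 h against 0 h. These fits hold fewer samples. For Ikaros against control at 2 h they called 860 of all 12762 genes, beside 1261 lower and 1171 higher in the main fit. For the same comparison 2927 genes were called with the replicate block, and 3135 with the 0 h cultures blocked apart. Such totals were not determined in the blocked fits for the comparisons of a line with its own 0 h.

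Leaving out libraries, which also leaves fewer samples, gave for Ikaros against control 0 to 2 cytosolic members at 2 h and 2 to 6, 3 to 9, 4 to 8 and 7 to 10 mitochondrial members from 2 to 18 h in order. The change from 0 h was called for 0 to 1 mitochondrial members at 2 h, for 7 to 13 cytosolic and 2 to 3 mitochondrial members at 12 h, and for 6 to 13 mitochondrial members at 24 h. In Ikaros cells against 0 h the counts were 0 cytosolic and 1 to 4 mitochondrial members at 2 h and 9 to 14 mitochondrial members at 24 h, and against 2 h 7 to 12 mitochondrial members at 24 h. Fewest were called without replicate 1 or 2, and the cause was not tested. Over all 12762 genes 962, 804 and 2719 were called for Ikaros against control at 2 h without replicate 1, 2 and 3 in order. The cytosolic median at 6 h ranged from -0.0573 to 0.0641.

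Pair gaps ranged from -0.78 to -0.51 for Lars and Lars2, 0.13 to 0.31 for Mars and Mars2, 0.31 to 0.45 for Nars and Nars2, -0.38 to -0.27 for Wars and Wars2, 0.20 to 0.56 for Yars and Yars2, -0.56 to -0.43 for Eprs and Ears2, and -0.47 to -0.29 for Eprs and Pars2. Each of these crossed the threshold of the exact permutation test in at least 1 fit, and the other 10 pairs did not. The depth of the libraries is not in the table, so its effect cannot be stated.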
